A study of Mus musculus with 12 samples.

Results

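The enteroendocrine genes described here are 33 genes that encode gut hormones and transmitters, the enzymes that make serotonin, the proteins of the secretory granule, the transcription factors of the endocrine lineage and the receptors through which these cells sense nutrients. They were chosen by name: each gene is represented by the brightest of its array probes, identified through the accession that the scanner file gives for the probe. All 33 had a probe, and 30 passed the filter on dim signals, which left 26107 features in all, 15583 of them named genes. By role the 33 comprise 9 hormones and transmitters, 5 serotonin genes with their regulators, 8 granule and processing genes, 8 transcription factors and 3 nutrient receptors. The measurements are RNA levels of duodenum from 12 male mice, 1 single-colour (Cy3) array per mouse and 3 mice in each of 4 groups.

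The groups were wild-type mice given vehicle, wild-type mice given IIAEK, Akp3-/- mice given vehicle and Akp3-/- mice given IIAEK. IIAEK is a pentapeptide, named by its amino acids in 1-letter code, which the labels describe as lowering cholesterol, and Akp3 encodes an intestinal alkaline phosphatase of the enterocyte brush border. The mice were 7 weeks old and were dosed by mouth daily for 14 days with 600 mg of IIAEK per kg of body weight or with vehicle, sodium carboxymethylcellulose at 5 g/L. The titles and the study design give 14 days, which is used here, although a few samples carry a longer time in another label. The duodenum was collected after an 8 h fast. The labels name the duodenum and mention no sorting of cells, and neither the strain background nor the way the knockout was made is given in the sources used here. The Akp3 level lay between 1.05 and 2.72 on the 6 wild-type arrays and between -4.90 and -3.80 on the 6 knockout arrays, with no overlap.

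Enteroendocrine cells are scattered single cells of the gut epithelium that sense the content of the lumen and release peptide hormones or serotonin from granules. They arise from crypt progenitors that switch on Neurog3, and later factors such as Neurod1, Insm1, Pax6 and Isl1 set which hormones a cell makes. In the duodenum they are known as the source of secretin, cholecystokinin and gastric inhibitory polypeptide, which act on the pancreas, the gallbladder and the islets. Many of the same genes are also used by pancreatic islets, by endocrine cells of the stomach and by neurons.

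Levels are log2 processed intensities minus the 75th percentile of all probes on the same array, so a level of 0 equals that percentile and a difference of 1 is a doubling of signal. Probes differ in how brightly they bind, so levels are compared between arrays within a gene and not between genes. Differences between groups were tested with limma, a linear model fitted over all features with moderated errors, and p-values were adjusted by the Benjamini-Hochberg method over all 26107 features. A gene is called when its adjusted p is under 0.05. With 3 mice a group, p-values measure the spread between these mice. The main fit has no slide term, so this spread includes differences between the 2 slides that carried the arrays.

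No enteroendocrine gene was called in any of the 7 comparisons made: the effect of IIAEK within either genotype, how far these 2 effects differ, the effect of the knockout under either treatment, and the averages of both effects. In limma's test the smallest adjusted p among the 30 genes was 0.999 for the wild-type IIAEK effect, 1 for IIAEK in the knockout and for the difference, 0.993 for the knockout under vehicle, 1 for the knockout under IIAEK and for the average IIAEK effect, and 0.999 for the average knockout effect. Among all features the called share was 0% for the 3 comparisons of IIAEK within or between genotypes and for the average IIAEK effect, 0.00766% for the knockout under either treatment and 0.0192% for the average knockout effect. At an unadjusted p under 0.05, 1 of 30 genes passed for the wild-type IIAEK effect (background 3.14%), 0 for that in the knockout (1.91%), 0 for the difference (1.52%), 2 for the knockout under vehicle (3.85%), 0 for the knockout under IIAEK (1.31%), 1 for the average IIAEK effect (2.94%) and 1 for the average knockout effect (3.03%). These were Nkx2-2 in 3 comparisons, Ghrl and Slc18a1. The Nkx2-2 probe passed the filter only through the IIAEK groups and was mostly not well above background in wild type under vehicle. Of the 27 members well above background on all 12 arrays, 0 passed for the wild-type and the average IIAEK effect in limma's fit. Among them 1 passed for the knockout under vehicle and 1 for the average knockout effect.

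The promoters of 6 members are shown first. They were picked from the hormone and granule genes whose levels moved together over the mice or that carry the complete cAMP response element. This element is the letters TGACGTCA, to which transcription factors that respond to cyclic AMP bind. All 6 hold the element or its half-site in the bases shown. Gcg, which moved together with Sst, has neither in its window and is not shown. The table of RefSeq promoters on GRCm38.p6 held 36 windows for 29 of the 33 members, each running from 250 bases before to 50 bases after a transcript start; Slc18a1, Cpe, Pax4 and Insm1 had no entry. Shown are the 100 bases before the start, 5′ to 3′ on the strand of the gene. Capitals mark the complete element or, where it is absent, its half-site TGACG.
Sst, chr16:23890845-23890944, minus strand: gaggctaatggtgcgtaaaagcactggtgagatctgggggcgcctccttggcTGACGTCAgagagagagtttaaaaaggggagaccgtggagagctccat
Scg3, chr9:75684057-75684156, minus strand: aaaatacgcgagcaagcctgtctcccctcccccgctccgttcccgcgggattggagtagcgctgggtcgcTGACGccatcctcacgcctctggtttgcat
Chga, chr12:102554841-102554940, plus strand: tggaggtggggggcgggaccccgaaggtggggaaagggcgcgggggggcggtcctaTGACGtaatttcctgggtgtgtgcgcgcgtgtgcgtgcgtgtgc
Chgb, chr2:132781542-132781641, plus strand: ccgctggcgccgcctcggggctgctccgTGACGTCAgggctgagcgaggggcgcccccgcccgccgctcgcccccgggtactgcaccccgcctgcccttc
Scg2, chr1:79440027-79440126, minus strand: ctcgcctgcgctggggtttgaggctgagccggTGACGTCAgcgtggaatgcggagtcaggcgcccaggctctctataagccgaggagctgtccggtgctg
Pcsk1, chr13:75089757-75089856, plus strand: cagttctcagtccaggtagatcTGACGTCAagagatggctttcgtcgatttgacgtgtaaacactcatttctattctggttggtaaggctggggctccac

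The complete element was present in 5 of the 36 windows (13.9%), those of Sst, Chgb, Scg2, Pcsk1 and 1 of the Pax6 windows, against 1.79% of all 32851 windows in the table. Its first base lay 48 bases before the start in Sst, 72 in Chgb, 68 in Scg2, 78 in Pcsk1 and 76 in Pax6. The half-site, searched on both strands and also contained in the complete element, was present in 16 windows (44.4%) of 14 members, against 20.8% of all windows. Scg3 had it 30 bases before the start, Chga 44, Cck 47 and, as the nearer of a pair, Tac1 43. Neither form was found in the windows of Gcg, Gip, Sct, Ghrl or Pyy. The E-box CANNTG, the letters that basic helix-loop-helix factors such as Neurog3 and Neurod1 bind, was in 77.8% of the member windows and 72.3% of all, and TATAAA was in 11.1% and 13.6%. These are matches of letters in fixed windows and were not tested against the expression data.

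**Figure D1:**
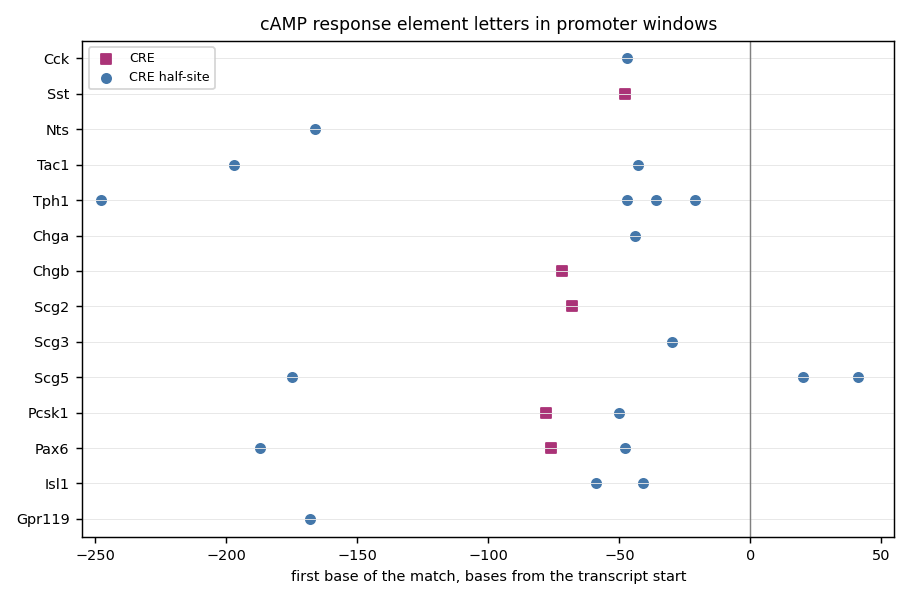
Position of cAMP response element letters in the RefSeq promoter windows of the 14 members that have any. The horizontal axis is the distance of the first base of a match from the transcript start (vertical line), squares are complete elements and circles are half-sites outside a complete element; all windows of a gene share its line. The 5 complete elements lie between 78 and 48 bases before the start.

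Among the hormones, the proximal duodenal peptides Gip, Cck and Sct differed little between groups. Gip (gastric inhibitory polypeptide, an incretin) had levels of 2.87 ± 0.26 (SD, n = 3) in wild type under vehicle, 2.68 ± 0.23 under IIAEK, 2.68 ± 0.17 in the knockout under vehicle and 2.46 ± 0.30 under IIAEK, and ran from 2.16 to 3.16. Cck (cholecystokinin, which drives gallbladder contraction and pancreatic enzyme release) ran from 4.16 to 5.10 over the 12 arrays, and Sct (secretin, which drives bicarbonate release) from 5.28 to 6.48, with its lowest value on knockout vehicle array 2. For all 3 genes the groups overlapped in each of the 4 comparisons of 2 groups. The fitted change under IIAEK in wild type was -0.19 for Gip (95% interval -0.63 to 0.24), 0.18 for Cck (-0.31 to 0.67) and 0.14 for Sct (-0.42 to 0.71). In the knockout under vehicle it was -0.19 for Gip (-0.62 to 0.24), -0.11 for Cck (-0.61 to 0.38) and -0.22 for Sct (-0.78 to 0.35).

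Nts, Gcg and Pyy, hormones that are known more from the distal gut, had the widest spreads of all 30 genes. Nts (neurotensin) read -2.12, -0.82 and -3.63 in vehicle-treated wild type and 0.05, 0.08 and -3.50 under IIAEK. Knockout values were -2.53, -1.17 and -0.27 under vehicle and -1.37, -0.16 and -1.35 under IIAEK. The 2 lowest arrays, -3.63 and -3.50, were array 3 of each wild-type group, and the groups overlapped throughout. Its fitted change under IIAEK in wild type was 1.06 (95% interval -1.10 to 3.23), so that neither a fall nor a rise could be told from the spread.

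Gcg (proglucagon, which enteroendocrine L cells process into the glucagon-like peptides and islets into glucagon) read 0.43, 1.11 and 3.04 in vehicle-treated wild type and 1.19, 0.74 and 2.26 under IIAEK. Knockout arrays gave 0.27, 3.35 and 1.03 under vehicle and 2.14, 1.25 and 1.29 under IIAEK. Each group mean lay between 1.40 and 1.56, whereas the SD within a group reached 1.60, so the spread between mice of a group was far larger than any difference between groups. Pyy (peptide YY) read -1.17, -1.27 and -0.10 in vehicle-treated wild type and -2.29, -2.08 and 0.66 with IIAEK. The knockout arrays read -0.36, -0.03 and -0.63 under vehicle and -0.78, -1.16 and -0.46 under IIAEK, within the wild-type range.

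Sst (somatostatin, which restrains the release of other hormones) read 4.81, 5.23 and 6.03 in vehicle-treated wild type and 5.37, 4.68 and 5.59 under IIAEK. Knockout mice had 4.91, 5.52 and 5.09 under vehicle and 5.38, 5.32 and 5.49 under IIAEK. All groups overlapped, and the 3 knockout IIAEK arrays lay close together (SD 0.08). Tac1, which encodes substance P and is shared with neurons, ran from 1.31 to 2.22 with overlapping groups.

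Ghrl (ghrelin, a hunger hormone made mainly by stomach endocrine cells and also in the duodenum) separated the genotypes under vehicle. It read 4.76, 5.02 and 4.97 in vehicle-treated wild type and 4.39, 4.29 and 4.14 in the knockout under vehicle, with no overlap. Under IIAEK it read 4.42, 4.22 and 5.13 in wild type and 4.56, 4.20 and 4.88 in the knockout, with overlap. The difference under vehicle was -0.64 (SE 0.23, 95% interval -1.16 to -0.13, 1.56-fold lower in the knockout, unadjusted p = 0.0191, adjusted p = 0.993 in limma's fit), so it failed the correction. All 3 probes of the gene gave it, with differences of -0.64, -0.64 and -0.63. In this comparison 8.5% of all features were higher and 5.87% lower without overlap, as were 2 and 2 of the 30 members.

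The arrays also differed in the levels of marker genes of the neighbouring stomach and pancreas, as the plot of marker lists shows. Stomach mucous-cell genes (6 of 7 past the filter) averaged 5.43 to 6.98 on 6 arrays, all 3 of wild type under vehicle and 1 in each other group, and -1.67 to 0.11 on the other 6. Gast (gastrin, of the stomach antrum) read -1.80 to 2.04 on the same 6 arrays and -5.99 to -4.58 on the others. Genes listed for Brunner's glands of the duodenum (2 of 3 past the filter) are also in the stomach lists. They averaged 4.64 to 6.41 on the same 6 arrays and -0.30 to 2.41 on the others. The labels describe no dissection borders, and the source of this RNA was not tested. Ghrl was at 4.76 or above on 5 of those 6 arrays and at 4.39 on the sixth, knockout vehicle array 1; the other 6 arrays read 4.14 to 4.56. With the stomach and pancreas lists as covariates the Ghrl difference under vehicle was -0.42 (SE 0.17). Under vehicle the stomach mucous genes were high on all 3 wild-type arrays and on 1 knockout array. Genotype and tissue content therefore cannot be told apart in the Ghrl difference. In bulk tissue, fewer cells of a type and less RNA per cell cannot be told apart either.

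Islet genes averaged -4.19 on wild-type vehicle array 1, -1.32 on knockout vehicle array 1 and -0.14 on knockout IIAEK array 3, and 0.39 to 2.92 on the other 9. Acinar genes averaged 3.69 on wild-type vehicle array 1 and 8.57 to 10.06 elsewhere. On that first array Ins1 read -3.67, Ins2 -4.10 and Ppy -7.52, each the lowest of the 12. There Gcg (0.43) and Sst (4.81) were the second lowest of the 12 arrays and Chga (2.88) was the third lowest. Gcg correlated with the islet mean over the 12 arrays at r = 0.688 (rho 0.825, permutation p = 0.012 and 0.0017, adjusted 0.22 and 0.15 over 180 relations of 30 members with 6 marker lists), at 0.652 without the 2 arrays farthest from the median and at 0.765 on the 7 arrays of slide 1. Scg5 had a higher r with the islet mean (0.694). The largest r of the 180 was that of Scg5 with the enterocyte list (0.827), and Sct reached 0.776 with the mast cell list. None of the 180 relations passed the adjustment by both coefficients. With the islet mean as a covariate, an alternative chosen after seeing the data, the median difference of the 30 members in the knockout under vehicle was -0.24, against -0.18 without it.

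**Figure D2:**
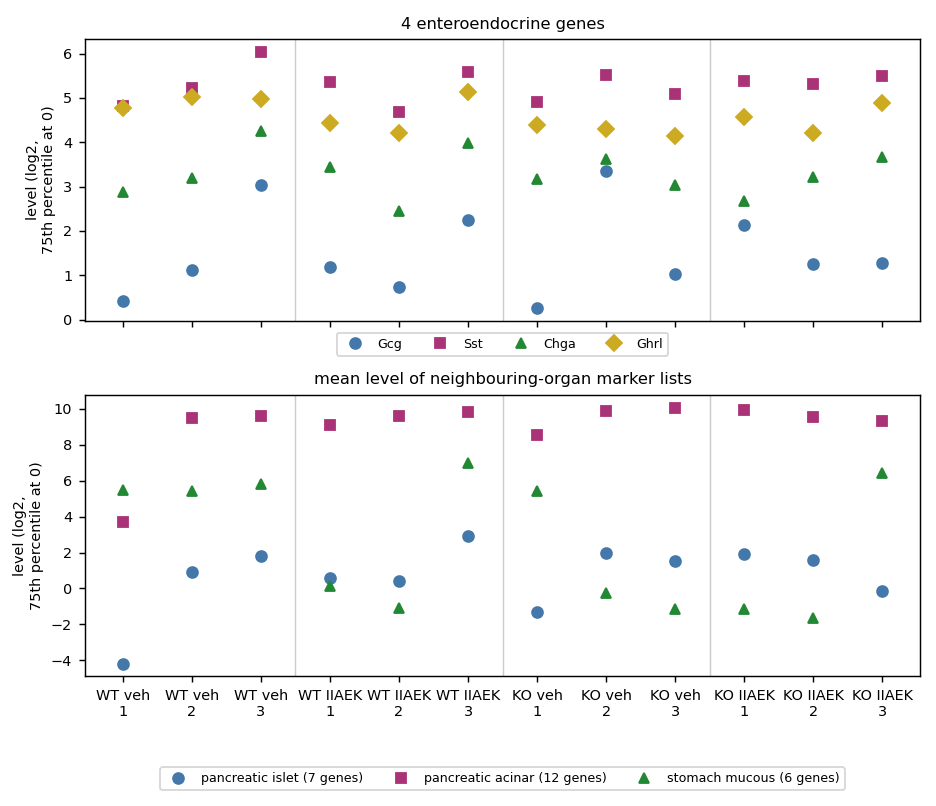
Levels (log2, with the array's 75th percentile at 0) of 4 enteroendocrine genes (top) and mean levels of 3 marker lists of neighbouring organs (bottom) on each of the 12 arrays, in columns by genotype (WT wild type, KO Akp3 knockout), treatment (veh vehicle) and replicate. Values are to be compared along a row of like symbols. Stomach mucous genes are at 5.43 or more on 6 arrays and at 0.11 or less on the others, and the first wild-type vehicle array is lowest for islet and acinar genes.

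The serotonin genes showed no called change. Tph1, the rate-limiting enzyme of serotonin synthesis outside the brain, ran from 0.34 to 1.45. Its change under IIAEK was -0.11 in wild type (95% interval -0.76 to 0.54) and -0.50 in the knockout (-1.15 to 0.15). Ddc, the decarboxylase of the second step, which enterocytes also express, read 5.46, 5.52 and 5.31 in vehicle-treated wild type and 5.61, 5.69 and 5.82 in the knockout under vehicle. These groups did not overlap, but the difference of 0.27 had a 95% interval of -0.28 to 0.82, since the error is shared by all 4 groups and the IIAEK arrays ran from 5.03 to 6.25.

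Slc18a1, a vesicular transporter that loads serotonin into granules, read -0.41, -0.33 and -0.23 in vehicle-treated wild type and 0.32, 0.08 and -0.32 under IIAEK. Corresponding knockout values were -0.45, -0.61 and -0.57 under vehicle and -0.35, -0.06 and -0.60 under IIAEK. The knockout vehicle arrays were all below the wild-type vehicle arrays (difference -0.22, SE 0.19), and under IIAEK the groups overlapped. The average knockout effect was -0.29 (SE 0.13, unadjusted p = 0.0470, adjusted p = 0.999 in limma's fit). A second probe of the gene gave -0.17 for the average and -0.02 under vehicle.

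Fev, a factor of serotonin-producing cells, was dim and above background on 11 arrays. It read -3.89, -3.84 and -2.93 in vehicle-treated wild type and -4.15, -4.16 and -3.08 under IIAEK. The knockout values were -3.93, -3.23 and -3.87 under vehicle and -4.60, -4.01 and -2.76 under IIAEK. In each wild-type group, and in the knockout under IIAEK, array 3 was highest. Lmx1a, which acts with Fev in the serotonin lineage, ran from -2.61 to -1.91.

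The granule genes encode the chromogranins and secretogranins that pack hormones (Chga, Chgb, Scg2, Scg3), the prohormone convertase Pcsk1 with its inhibitor Pcsk1n, carboxypeptidase E (Cpe), which trims the cut peptides, and Scg5, the chaperone of the related convertase Pcsk2. All 8 were well above background on all 12 arrays. In the knockout under vehicle all 8 fitted differences were below 0 (median -0.16, from -0.38 to -0.07), where all features had a median of 0.03 and 54.6% lay above 0. None passed at an unadjusted p under 0.05. The count rests on single arrays: without wild-type vehicle array 3, which is on slide 2, 4 of the 8 were below 0 (median -0.05; Chga, Scg3, Pcsk1n and Scg5 were above), and without knockout vehicle array 1 it was 5 of 8 (median -0.07). Under IIAEK 6 of 8 were below 0 between the genotypes (median -0.14), where 47.5% of all features lay above 0. IIAEK against vehicle gave 6 of 8 below 0 in wild type (median -0.06) and 5 of 8 above 0 in the knockout (median 0.09). With each array left out, the counts ran from 4 to 8 of 8 below 0 between the genotypes under IIAEK, from 2 to 7 of 8 below 0 for IIAEK in wild type (2 without wild-type IIAEK array 2) and from 4 to 6 of 8 above 0 in the knockout. These comparisons share the same 4 groups of arrays, so the counts are not independent.

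Chga (chromogranin A, the general marker of endocrine cells) read 2.88, 3.20 and 4.25 in vehicle-treated wild type and 3.45, 2.44 and 3.99 under IIAEK. In knockout mice the readings were 3.17, 3.61 and 3.04 under vehicle and 2.68, 3.22 and 3.68 under IIAEK. The knockout vehicle values lay inside the wild-type range. Chgb, from 4.38 to 5.41 over the 12 arrays, had the lowest of the 8 differences, -0.38 (SE 0.24) in the knockout under vehicle, and Scg2, from 1.73 to 2.52, had -0.30 (SE 0.17). Pcsk1, from -0.40 to 0.10, had the narrowest error of the 8: its change was -0.05 under IIAEK in wild type (95% interval -0.36 to 0.26) and -0.13 in the knockout under vehicle (-0.44 to 0.18). Over the 12 arrays Scg5 ran from -0.40 to 0.35, Pcsk1n from -0.53 to 0.81, Cpe from 2.82 to 3.92 and Scg3 from -1.72 to -0.53.

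Of the transcription factors, Nkx2-2, which specifies several hormone lineages, was above background on 9 arrays only. It read -4.87, -4.95 and -4.66 in wild type under vehicle, where 1 array was above background, and -4.03, -3.44 and -3.84 under IIAEK, where all 3 were. Its knockout values were -4.30, -3.27 and -4.57 under vehicle and -4.07, -3.50 and -3.97 under IIAEK. The wild-type vehicle arrays were thus the 3 lowest of the 12, and the only overlaps lay among the other groups. In the knockout under vehicle 2 arrays were above background. The probe passed the filter through the IIAEK groups, and its differences are set against vehicle values that were mostly not well above background, so they give no measured fold. The fitted difference was 1.06 for IIAEK in wild type (SE 0.33, unadjusted p = 0.00894, adjusted p = 0.999 in limma's fit), 0.78 for the knockout under vehicle (SE 0.33, unadjusted p = 0.0395; 0.39 without knockout vehicle array 2) and 0.63 for the average IIAEK effect (SE 0.24, unadjusted p = 0.0221). Of the 27 members well above background on all 12 arrays, 0 passed at an unadjusted p under 0.05 for IIAEK in wild type in limma's fit.

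The second Nkx2-2 probe did not follow the first: its correlation with it over the 12 arrays was -0.119, and it gave -0.62 for IIAEK in wild type and 0.58 for the knockout under vehicle. With the mean of both probes the change under IIAEK in wild type was 0.22, and after the normexp background model it was 0.32. Beside the 1 member that was higher without overlap for IIAEK in wild type stand 5.58% of all features higher and 3.69% lower. The corresponding shares were 1.98% and 2.7% for IIAEK in the knockout, and 1.65% and 2.19% for the knockout under IIAEK, where no member was free of overlap.

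Neurog3, the factor that starts the endocrine lineage, read -3.88, -3.73 and -3.50 in vehicle-treated wild type and -4.17, -4.07 and -3.86 under IIAEK. Knockout values were -3.75, -4.38 and -4.76 under vehicle and -4.15, -3.81 and -2.75 under IIAEK, the last being the highest of all 12. Neurog3 was dim, above background on 11 arrays and on 2 in the knockout under vehicle. The mean of that group thus includes a value not well above background. Its change under IIAEK was -0.33 in wild type (95% interval -1.13 to 0.46) and 0.72 in the knockout (-0.07 to 1.52). With each array left out the latter ran from 0.31, without knockout IIAEK array 3, to 1.01. The difference between the 2 was 1.06 (SE 0.51, unadjusted p = 0.0636 in limma's fit), from 0.65 to 1.35 with each array left out.

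Isl1, a LIM factor of several hormone lineages, read -2.22, -2.30 and -2.13 in vehicle-treated wild type and -2.70, -2.59 and -1.49 under IIAEK. Knockout arrays gave -2.28, -2.80 and -3.02 under vehicle and -2.44, -2.67 and -1.83 under IIAEK. Its 2 highest values were on wild-type IIAEK array 3 and knockout IIAEK array 3, which are among the 6 arrays high in stomach mucous genes. Both arrays are on slide 2. A second Isl1 probe (r = 0.902 with the first) gave -0.41 for IIAEK in wild type, against -0.04. In the knockout it gave 0.47 against 0.39. For the knockout it gave -0.66 against -0.48 under vehicle and 0.22 against -0.05 under IIAEK. The part of tissue content in this gene's level was not tested.

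Insm1, a zinc-finger factor of endocrine differentiation, read -1.15, -1.24 and -0.54 in vehicle-treated wild type and -1.09, -1.68 and -0.79 under IIAEK. The knockout arrays read -1.37, -0.90 and -1.74 under vehicle and -1.91, -1.17 and -0.59 under IIAEK. Pax4, a paired-homeobox factor of endocrine precursors, read -2.98, -2.73 and -2.37 in vehicle-treated wild type and -2.64, -2.89 and -2.84 with IIAEK. In the knockout Pax4 read -2.54, -2.74 and -2.90 under vehicle and -3.22, -2.90 and -1.87 under IIAEK. Both genes had overlapping groups throughout.

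Pax6 read -0.21, -0.21 and -0.23 in vehicle-treated wild type and 0.68, 0.41 and -0.96 under IIAEK. Knockout mice had -0.19, -1.24 and -0.44, then 0.12, 0.40 and -1.45 under vehicle and IIAEK. The 3 wild-type vehicle arrays agreed to an SD of 0.01 while the other groups spread by 0.55 to 0.997, and the other 3 Pax6 probes did not pass the filter. Neurod1, which follows Neurog3, ran from -1.58 to -0.85.

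All 7 factors past the filter had fitted changes above 0 for IIAEK in the knockout (median 0.20, from 0.06 to 0.72), where 49.2% of all features lay above 0. This count depends on dim probes. The Nkx2-2 probe passed the filter through the IIAEK groups, and the second Nkx2-2 probe gave -0.60 here. Neurog3, with the largest change, was above background on only 2 of the knockout vehicle arrays. For IIAEK in wild type 5 of the 7 were below 0 (median -0.10), where 56.3% of all features lay above 0. None passed at an unadjusted p under 0.05 in the knockout. The highest value of Neurog3 and Pax4 was on knockout IIAEK array 3, one of the 6 arrays high in stomach mucous genes. Without that array 5 of the 7 were above 0, with Pax4 and Insm1 below, and without knockout vehicle array 3 it was 3 of 7 (median -0.02). In wild type 2 of the 7 were below 0 without vehicle array 3, and 2 also with the stomach and pancreas covariates. Rfx6 was not past the filter, being above background on 5 arrays (-5.62 to -3.96).

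Of the nutrient receptors, Ffar4, a receptor for long-chain fatty acids, ran from -3.83 to -2.87 with a change of -0.21 under IIAEK in wild type (95% interval -0.71 to 0.28) and 0.31 in the knockout under vehicle (-0.18 to 0.80). Ffar1, the other long-chain fatty acid receptor of these cells, and Gpr119, a receptor for lipid amides, were above background on 0 arrays.

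**Figure D3:**
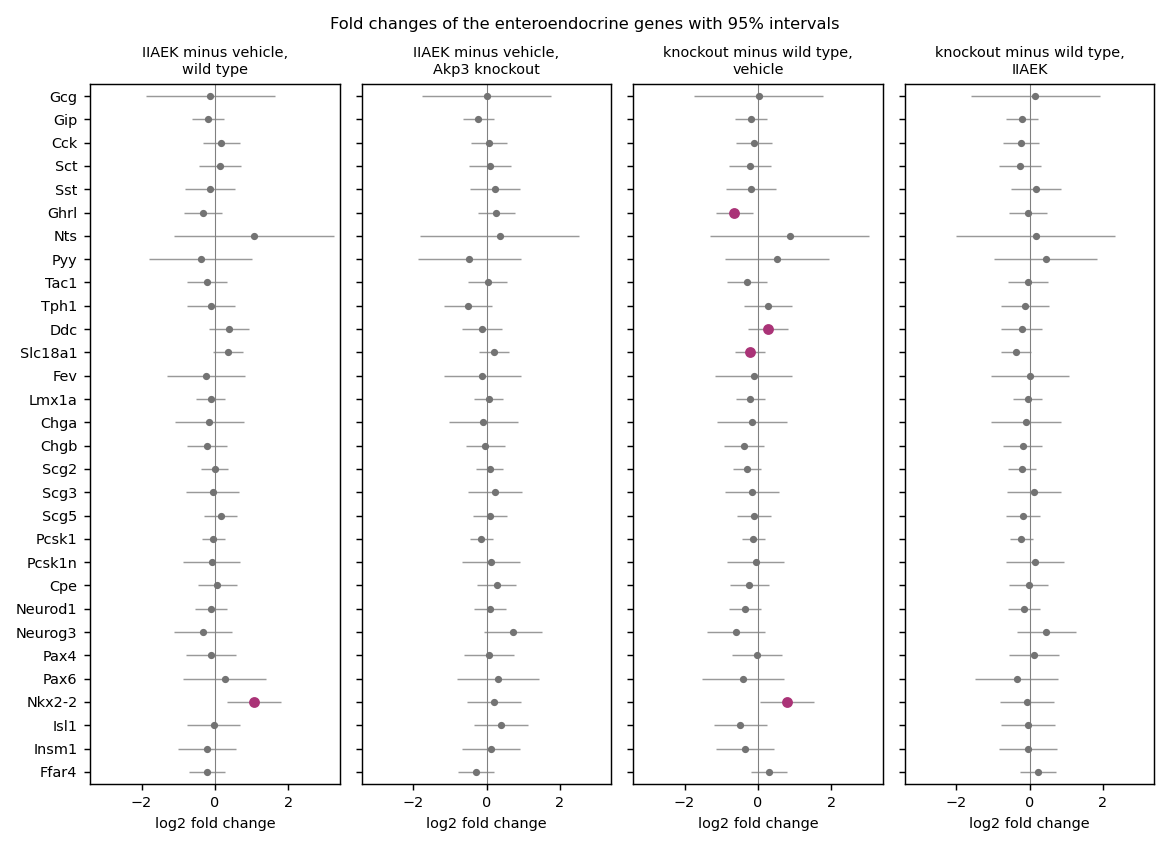
Log2 fold changes with 95% intervals from limma's fit for the 30 enteroendocrine genes past the filter, in the 4 comparisons of 2 groups. Purple points mark genes whose 2 groups of 3 arrays did not overlap: Nkx2-2 for IIAEK in wild type, and Ghrl, Ddc, Slc18a1 and Nkx2-2 for the knockout under vehicle. The widest intervals belong to Nts, Gcg and Pyy.

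Over all 30 genes the median change was -0.10 for IIAEK in wild type, with 9 above 0 and 21 below, against a median of 0.03 over all features. Without wild-type vehicle array 3 it was 0.07 (19 above 0), and without wild-type IIAEK array 2 it was 0.06 (19 above 0), so its sign rests on single arrays. It was 0.09 in the knockout (21 above 0; all features -0.0032), -0.18 for the knockout under vehicle (7 above 0; all features 0.03) and -0.05 for the knockout under IIAEK (10 above 0; all features -0.01). Without knockout vehicle array 3 the median for IIAEK in the knockout was -0.02 (14 above 0), and leaving out each array in turn gave -0.02 to 0.17. For the knockout under vehicle that range was -0.29 to -0.04, the latter without wild-type vehicle array 3 (14 above 0), and for the knockout under IIAEK it was -0.17 to -0.02. The standard error of a single member's difference had a median of 0.28, against 0.24 for all features. This is not the error of a median over the 30 genes, which was not estimated.

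The 12 arrays came from 2 slides, scanned separately: 7 arrays on slide 1, 5 on slide 2, with arrays of every group on each. With group means in the model, 26.3% of all features differed between slides at an adjusted p under 0.05 (41.7% at an unadjusted p), and 7 of the 30 members did (8 higher and 3 lower on slide 2 at an unadjusted p). The 7 were Pcsk1n (0.75 higher on slide 2, SE 0.14), Fev (0.98, SE 0.21), Scg3 (0.65, SE 0.15), Chga (0.78, SE 0.23), Sst (0.53, SE 0.17), Pyy (1.12, SE 0.35) and, in the other direction, Pax6 (-0.97, SE 0.25). With slide as a block, the Ghrl difference under vehicle was -0.74 (SE 0.21, adjusted p = 0.657 in limma's fit), and it was -0.50 within slide 1 and -0.76 within slide 2. Slide 1 holds a single knockout vehicle array, and slide 2 holds 2 of them and 1 array of each other group, so these values rest on 1 or 2 arrays a group. The fitted Nkx2-2 change under IIAEK in wild type was 1.06 with the block and 1.18 within slide 1; within slide 2 it was 0.82, from 1 array against 1, with the background limit given above. The median of the 30 members for the knockout under vehicle was -0.20 with the block, -0.04 within slide 1 and -0.46 within slide 2.

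**Figure D4:**
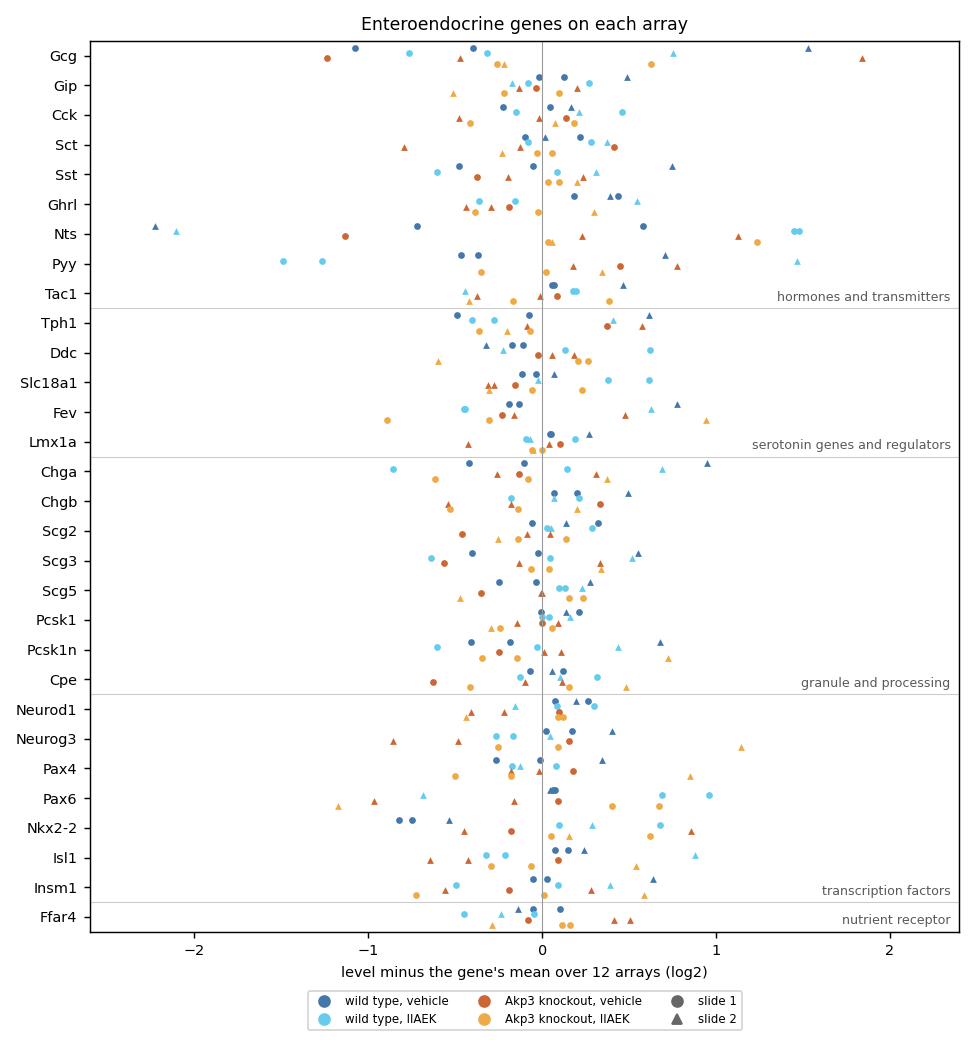
Level of each of the 30 genes on each array minus that gene's mean over the 12 arrays (log2), with genes in rows by role, colour for the group and shape for the slide. Nts, Gcg and Pyy span 2.95 or more between their lowest and highest arrays, and triangles (slide 2) lie mostly to the right for Fev, Pcsk1n, Chga and Scg3.

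The levels of some members moved together across the mice. Of 435 pairs of members, 4 had an adjusted permutation p under 0.05 by both Pearson's r and Spearman's rho, and all 4 were positive. Sst and Scg3 had r = 0.945 and rho = 0.944 (permutation p = 1e-05 and 2e-05, adjusted 0.0043 for both, n = 12). Without the 2 arrays farthest from the median r was 0.940, and on the 7 arrays of slide 1 it was 0.946. With each slide's mean subtracted it was 0.919.

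Chga and Insm1 had r = 0.881 and rho = 0.895 (permutation p = 0.00023 and 0.00026, adjusted 0.015 and 0.027, n = 12), with 0.839 without the 2 farthest arrays, 0.791 on slide 1 and 0.838 with slide means subtracted. Chga and Scg3 had r = 0.870 and rho = 0.937 (permutation p = 0.00023 and 3e-05, adjusted 0.015 and 0.0043, n = 12), with 0.777 without the 2 farthest, 0.580 on slide 1 and 0.740 with slide means subtracted. On slide 1 alone this was the one pair of the 4 with an unadjusted permutation p above 0.05 (0.17). Gcg and Sst had r = 0.829 and rho = 0.937 (permutation p = 0.00064 and 3e-05, adjusted 0.031 and 0.0043, n = 12), with 0.819 without the 2 farthest, 0.781 on slide 1 and 0.726 with slide means subtracted. Slide 2 holds 5 arrays, too few for a value of its own. With the islet mean, r was 0.688 for Gcg, 0.629 for Sst, 0.616 for Scg3, 0.384 for Chga and 0.0554 for Insm1. The part of tissue content in the 4 pair correlations was not tested. Sst, Scg3 and Chga are among the members with a complete cAMP response element or its half-site, and Gcg has none in its window; with 4 pairs, no relation between the letters and the correlations was tested.

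**Figure D5:**
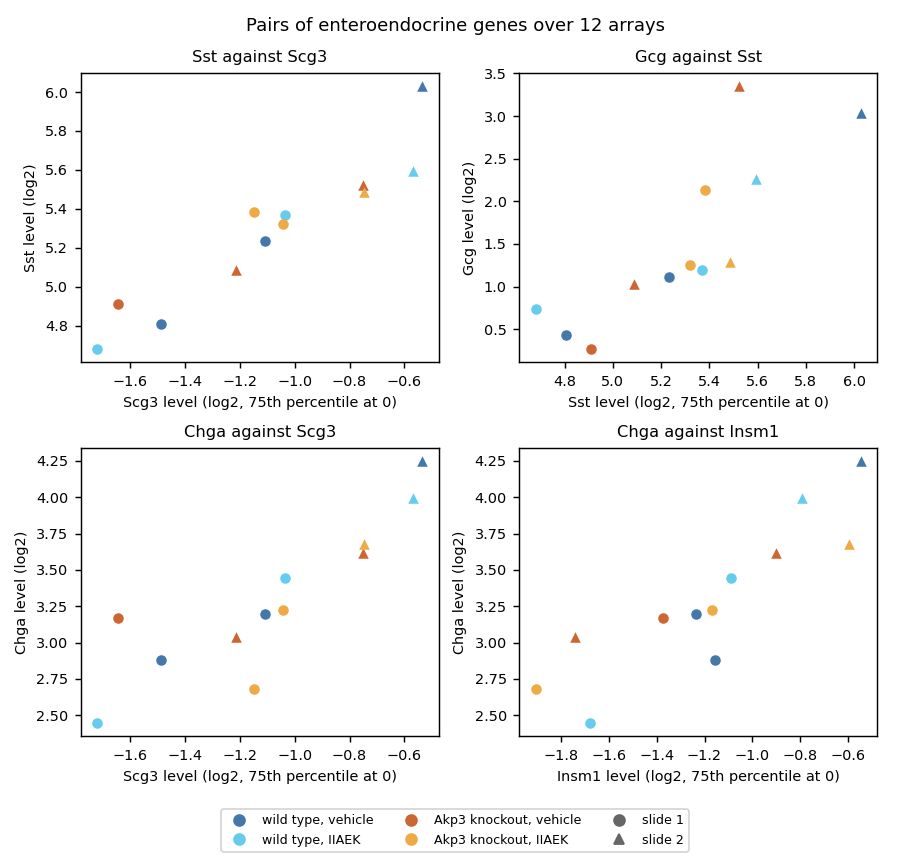
Levels (log2, with the array's 75th percentile at 0) of the 4 pairs of members that passed the adjustment, 1 point per array, coloured by group and shaped by slide. All 4 relations are positive, with r between 0.829 and 0.945, and the 3 knockout IIAEK arrays lie close together in Sst.

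The rest of the pathway was followed through 5 further lists of genes. No gene of these lists was called in any of the 7 comparisons in limma's fit. At an unadjusted p under 0.05, other hormone genes (8 of 10 past the filter) had 0 in every comparison. Other regulators (16 of 16) had 1 higher for IIAEK in the knockout, Runx1t1 (0.39, SE 0.16), and 1 lower for the average IIAEK effect, Onecut3 (-1.39, SE 0.63). Onecut3 read -2.86 to -2.03 on the 6 arrays high in stomach mucous genes and -6.22 to -4.01 on the other 6. With the stomach and pancreas covariates its difference was -0.83 (SE 0.27). Over all alternatives, single slides included, the Onecut3 difference ran from -2.65 to 0.45. Other nutrient and peptide receptors (7 of 13) had 0.

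Among receptors for the hormones themselves (11 of 16 past the filter), IIAEK in wild type had 1 higher, Glp2r, the receptor of glucagon-like peptide 2 (0.50, SE 0.17, 1.42-fold), and 1 lower, Glp1r, the incretin receptor (-2.18, SE 0.91). Glp1r read -3.09, -2.76 and -2.80 in vehicle-treated wild type and -6.76, -5.14 and -3.27 under IIAEK, so the size of its change rests on arrays where it was dim. Over all groups Glp1r read -4.02 to -2.76 on the 6 arrays high in stomach mucous genes and -6.76 to -4.31 on the other 6. Its change was -1.24 with the stomach and pancreas covariates, -0.47 after the normexp background model, -1.32 without wild-type IIAEK array 1 and -3.07 without wild-type IIAEK array 3. The knockout under vehicle had Tacr1, the substance P receptor, higher (0.93, SE 0.29) and Npy1r, a receptor of peptide YY's family, lower (-0.67, SE 0.27). Of the remaining comparisons, the difference of the IIAEK effects had Tacr1 (-0.97, SE 0.41), the average IIAEK effect had Glp2r (0.35, SE 0.12) and the average knockout effect had Npy1r (-0.45, SE 0.19).

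The largest difference among the other granule and exocytosis genes (20 of 24) was that of Pam, which amidates the ends of peptide hormones such as cholecystokinin and secretin. Pam read -1.5, -1.42 and -0.50 in vehicle-treated wild type and -2.58, -2.6 and -0.68 under IIAEK. Corresponding knockout values were 0.43, -0.16 and -0.29 under vehicle and -0.16, 0.10 and 1.37 under IIAEK, above all 6 wild-type arrays. The average knockout effect was 1.76 (SE 0.38, 3.39-fold, unadjusted p = 0.000734, adjusted p = 0.661 in limma's fit). With the stomach and pancreas lists as covariates it was 2.14 (adjusted p = 0.00671), past the threshold. It was 2.23 within slide 1, where 1 group has a single array, and 1.16 within slide 2, where 3 groups do. With the mean of its 2 probes it was 0.61 (adjusted p = 1). In the same list Snap25, a vesicle fusion protein shared with neurons, passed at an unadjusted p under 0.05 for the knockout under vehicle (0.55, SE 0.20) and for the difference of the IIAEK effects (-0.69, SE 0.28), and its fusion partner Stx1a for the average knockout effect (0.54, SE 0.24). Pam did so for the knockout under IIAEK (2.39, SE 0.54) and for the average knockout effect. With the stomach and pancreas covariates its difference under IIAEK also passed the adjusted threshold. In the RefSeq gene table Pam lies on chromosome 1, as do Akp3 and the members Fev, Lmx1a and Scg2, whose differences in the knockout under vehicle were -0.12, -0.22 and -0.30.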

How the data were processed

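RNA of 12 duodena was measured on 1 single-colour array each. The deposited scanner files were written by Feature Extraction 10.7.3.1, per the file headers, and hold a background-subtracted processed intensity that is not scaled between arrays. The authors' deposited value table is on a log2 scale; its making is not stated, and it matched log2 processed intensity shifted to a common 75th percentile with every probe's median set to 0 (correlation at least 0.999996). Its column medians were -0.07, -0.08, 0.13, -0.06, 0.04, 0.07, -0.05, -0.09, 0.09, 0.12, -0.04 and 0.08, and centring removes the level of a probe.

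Control and outlier-flagged spots were left out, spots of a probe were averaged, and each array's 75th percentile of log2 intensity (195 to 465 before the log) was subtracted. Well above background were 55.9% to 64.0% of the probes of an array, and 0 spots were saturated. A probe was kept if all 3 arrays of some group showed it well above background. Probe accessions were named through RefSeq (GRCm38.p6), and the probe with the highest mean stood for a gene. Group means were fitted with limma 3.58.1 in R 4.3.3 (lmFit, eBayes with intensity trend), two-sided, with Benjamini-Hochberg adjustment. The fit was tested on simulated data.

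All 33 members are named. Every array's values are given for the 12 members with the widest range among those past the filter and for members with an unadjusted p under 0.05, the rest by range over the 12 arrays. The members and gene lists were chosen with earlier results of these data known. Correlations used 100000 permutations. Only differences that had an unadjusted p under 0.05, a size of at least 0.5 or groups without overlap were followed through the alternatives one by one.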

Additional observations from a re-analysis of the deposited data

How the results depend on the processing

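The count of members called stayed at 0 under every alternative run, in all 7 comparisons or, in fits of only the groups compared, in the 4 comparisons of 2 groups: other scalings and background models, other filters and probe rules, blocks, covariates, single slides, the authors' table and each array left out. The smallest adjusted p of a member was 0.0512, in limma's fit within slide 2 for the average knockout effect of Nts (2.53), where 3 groups have 1 array. With the replicate block it was 0 too, and the Ghrl difference under vehicle was -0.64 (SE 0.21). Deviations from group means correlated from -0.252 to 0.699 between same-numbered arrays (median 0.143) and from -0.715 to 0.649 between differently numbered ones (median -0.128). Of 12 arrays, 5 correlated best with one of their own number. Since not every same-numbered pair correlated above 0.1, the numbers were not taken to pair the mice. These correlations cannot settle whether they do. All arrays numbered 1 were on slide 1 and all numbered 3 on slide 2. The correlations by number and the replicate block therefore also carry the difference between slides. Of 33 single-gene differences followed, 9 of 833 values turned in sign by over 1 standard error. Within slide 1 these were Neurog3 for IIAEK in the knockout (-0.23) and for the knockout under vehicle (0.0554), and Nts for the knockout under vehicle (-1.06) and the average knockout effect (-0.95). Within slide 2 they were Pyy for the knockout under vehicle (-0.23), and for the average IIAEK effect Nts (-0.25) and Onecut3 (0.45). With the stomach and pancreas covariates they were Ddc (-0.044) and Nts (-0.23) for the knockout under vehicle. The cause was not tested. Outside the fits within a single slide, where at least 1 group has a single array, 2 of the 33 differences newly passed an adjusted p under 0.05 in limma's fit. Both were of Pam, with the stomach and pancreas covariates. Differences that passed within a single slide are left out of this count. Leaving out each array gave -0.72 to -0.58 for Ghrl under vehicle, 0.89 to 1.19 for Nkx2-2 and 0.34 to 2.25 for Nts under IIAEK in wild type. The islet covariate and the alternatives for correlations were chosen after seeing the data; leaving out each array gave r of 0.768 or more for all 4 pairs. With 3 arrays a group, precision is limited by their number, and Nts, Gcg and Pyy had the widest standard errors.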
